A study of Mus musculus with 13 samples.

Results

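The 7 genes described here gate the cell cycle and were followed over 48 h in mouse aorta: the CDK inhibitors Cdkn1a, Cdkn1b and Cdkn1c, the D cyclins Ccnd1, Ccnd2 and Ccnd3, and the kinase gene Wee1. The members were all probe sets that the platform annotation assigns to these 7 genes, which gave 10 probe sets of 12422 in all. Every one of the 10 was assigned to 1 gene only. Aortae came from C57BL/6 mice (spelled c57/Bl6 in the labels). The sources used here give neither their age nor their sex. The animals had 2 weeks of 12 h light and 12 h dark, followed by 36 h of constant darkness. Pools of 6 aortae were then collected every 4 h, from circadian time (CT) 18 to CT62, which gave 2 pools, a day apart, for each of 6 circadian times. CT18 had 2 arrays. The labels do not say whether these 2 share a pool, so they were averaged and counted as 1 pool, and the difference between them given below may be technical or lie between pools. Each time point therefore counts once, and pooling hides the variation between mice. The p-values measure only the spread of these pools around a fitted curve.

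Cells pass from G1 into S phase when D cyclins bind and activate CDK4 and CDK6, which phosphorylate the retinoblastoma protein and release E2F factors. The inhibitors p21, p27 and p57, encoded by Cdkn1a, Cdkn1b and Cdkn1c, bind cyclin-CDK complexes and restrain them. WEE1 phosphorylates CDK1 and delays entry into mitosis. In mouse liver Wee1 and Cdkn1a are textbook examples of cell cycle genes under control of the circadian clock, while the adult aortic wall is a largely quiescent tissue of smooth muscle, endothelium and fibroblasts.

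Values are deposited array intensities on a linear scale. Their mean after trimming 2% at each end was 200.2 on every array, and they were not scaled further in the main fits. They measure relative signal of 1 probe set and do not rank different genes by abundance. Intensities can be negative. A floor of 36.7, the 20th percentile of all positive values, was used as the limit below which levels were not told apart. Probe sets whose mean log2 level was at or above the 40th percentile were tested, 7453 in all. Of the 10 member probe sets 5 passed this filter, 1 each for Cdkn1a, Cdkn1b, Cdkn1c, Ccnd1 and Ccnd3. Neither Wee1 nor Ccnd2 had a probe set above it. Markers of the labelled tissue gave signal, though sums of markers do not tell what share of a pool each tissue made up. Of 8 smooth muscle markers 7 were on the array, and their summed intensity was 9849 to 15610 over the 12 pools, while all 8 endothelial markers were present with sums of 1786 to 3235. Neighbouring tissues were present too. Skeletal muscle markers (10 of 10 on the array, 1 of them at the floor in every pool) summed to 5132 to 28900, atrial markers (7 of 7) to 3884 to 12330, brown fat markers (5 of 5) to 23900 to 33550, and thymocyte markers (9 of 11) to 236 to 4467. In such bulk tissue, fewer cells of a type and less RNA per cell cannot be told apart.

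**Figure D1:**
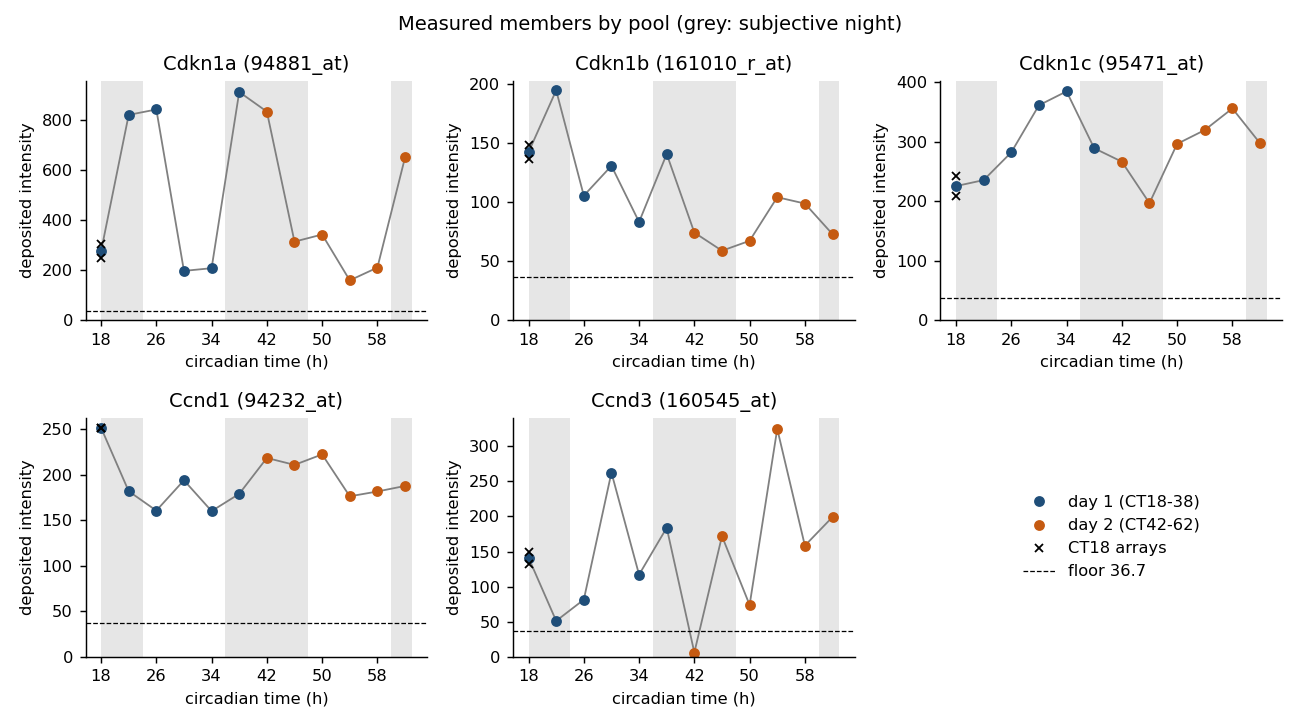
Deposited intensity of the 5 measured member probe sets in each of 12 pools against circadian time in hours, with 1 panel per gene. Grey marks subjective night, circles are pools coloured by day, crosses the 2 CT18 arrays and the dashed line the floor of 36.7. Cdkn1a swings between 159 and 910, Cdkn1c rises and falls on both days between 197 and 385, and Ccnd1 stays between 160 and 251.

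Cdkn1c, which encodes p57 and is an imprinted inhibitor of CDKs, followed the time of day most closely among the 5 measured members, by the share of variation that a 24-h curve accounted for. On the first day its intensity was 226 at CT18, 236 at CT22, 282 at CT26, 361 at CT30, 385 at CT34 and 289 at CT38. On the second day it was 267 at CT42, 197 at CT46, 297 at CT50, 320 at CT54, 356 at CT58 and 298 at CT62. The highest pool of each day was the one at circadian time 10, and the pools at circadian times 18 and 22 were the 4 lowest of the 12. Averaged over pools 24 h apart, the level was 371 ± 20.3 at CT10 and 216 ± 27.4 at CT22 (SD, n = 2 pools each). In descending order the other circadian times were CT6 with 341 ± 29.5, CT14 with 293 ± 6.03, CT2 with 289 ± 10.1 and CT18 with 246 ± 29.0. The ranges of the paired pools overlapped between CT10 and CT6, between CT14 and CT2, and between CT18 and CT22. They did not overlap between CT6 and CT14, nor between CT2 and CT18.

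A 24-h cosine fitted to the 12 pools accounted for 0.870 of the variation of Cdkn1c (R2). The amplitude, which is the distance from mean to peak on the log2 scale, was 0.37 ± 0.07 (SE, limma), with a peak at CT8.6 ± 0.7 h. The unadjusted p was 0.000522, rank 46 of 7453, and the adjusted p over all probe sets was 0.0846, so Cdkn1c did not pass the threshold of 0.05. None of the 5 measured members passed after adjustment (limma, 0 of 5), where 0.349% of all probe sets did. At an unadjusted p below 0.05 there was 1 of 5, against 9.96% of all probe sets. The amplitude of Cdkn1c stayed between 0.325 and 0.414 and its peak between CT8.4 and CT8.9 over 26 alternative settings, those on linear intensities being left out of the range of amplitudes. In the setting that fitted untransformed intensities of all 12422 probe sets, added after the values were seen, the adjusted p was 0.0484. Pools 24 h apart differed by a mean of 0.151 (log2) for Cdkn1c, against a median of 0.352 over all probe sets tested, and the CT18 arrays differed by 0.220, against a median of 0.193.

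Among 2819 other genes with a range of at least 1 on the log2 scale and at most 2 pools at the floor, the gene most like Cdkn1c was Nr1d2, which encodes the clock repressor REV-ERB beta (Pearson r = 0.92 over the 12 pools). Nr1d2 was lowest at CT46 (21.4) and highest at CT58 (489), and its fitted peak was CT9.3 ± 0.2 h, with an amplitude of 1.72 ± 0.10. The next were Zfp36l2, an RNA-binding protein that promotes mRNA decay, and Ssbp4 (r = 0.86 each). All these profiles come from the same 12 pools and arrays, and r is given as a description. As further references, Per2 peaked at CT13.5 and Dbp at CT8.5 in the same fit. On the log2 scale the amplitude of Cdkn1c was 0.37, beside 1.25 for Per2 and 1.95 for Dbp. Nr1d2 was at or below the floor in 1 pool, Per2 in 3 and Dbp in 7, so the floor enters the amplitudes of all these references. Over the log2-scale alternatives their amplitudes ran from 1.52 to 1.85, from 0.872 to 1.63 and from 1.5 to 2.66. All of them passed at an adjusted p below 0.05 in the main fit (limma). Dbp no longer passed in 16 of 24 alternatives and Per2 in 2 of 25, while Nr1d2 passed in all 26.

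**Figure D2:**
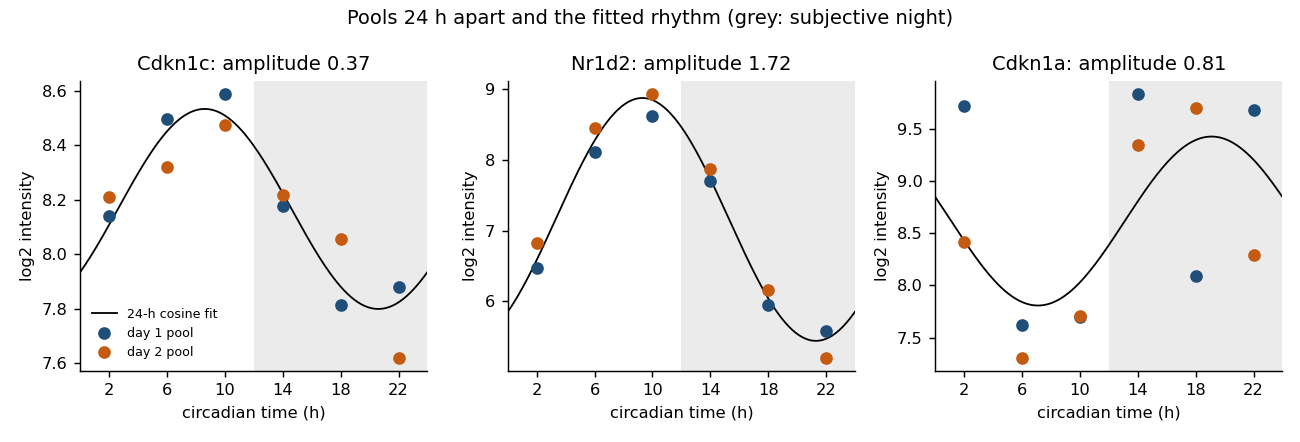
Log2 intensity of Cdkn1c, Nr1d2 and Cdkn1a against circadian time in hours, with the pools of each day as points and the fitted 24-h cosine as a line. Pools 24 h apart lie close together for Cdkn1c and Nr1d2, while for Cdkn1a the pools at CT2, CT18 and CT22 lie far apart (for example 275 and 832 in intensity at CT18).

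Cdkn1a, which encodes p21, had the widest swings among the inhibitors, and they followed time of day only in part. Its intensity was 275 at CT18, 819 at CT22, 840 at CT26, 196 at CT30, 207 at CT34 and 910 at CT38 on the first day. On the second day it was 832 at CT42, 313 at CT46, 341 at CT50, 159 at CT54, 210 at CT58 and 649 at CT62. The 12 pools fell into 5 with 649 to 910 and 7 with 159 to 341, with none in between, and the highest was 5.74-fold above the lowest. The 4 pools at circadian times 6 and 10 were the 4 lowest, and both pools at CT14 were among the 5 high ones. At CT2, CT18 and CT22 one pool was high and the other low, in intensity 840 and 341 at CT2. The means over pools 24 h apart were 177 ± 26.7 at CT6, 208 ± 1.74 at CT10, 553 ± 394 at CT18, 566 ± 358 at CT22, then 591 ± 353 at CT2, and the highest mean was that of CT14, 780 ± 185 (SD, n = 2 pools per time). The paired pools at CT18, CT22, CT2 and CT14 overlapped in range, so the order among these 4 times is not resolved, while both pools at CT6 and at CT10 lay below those of the other times.

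The 24-h cosine accounted for 0.381 of the variation of Cdkn1a, with an amplitude of 0.81 ± 0.29 (log2, SE) and a peak at CT19.1 ± 1.4 h. The adjusted p was 0.503 (limma). Only 2.82% of the probe sets tested had a larger SD over the pools than Cdkn1a (0.97, log2), and the 2 CT18 arrays, at 303 and 247, differed by 0.295. Pools 24 h apart differed by a mean of 0.851, against the median of 0.352 over all probe sets. A dimmer Cdkn1a probe set was at or below the floor in 10 of 12 pools, with values from -409 to 82.6. The 2 pools above the floor, CT26 (82.6) and CT22 (52.4), were among the 5 high pools of the brighter probe set, and the others were not told apart. On untransformed intensities, most of them below the floor, the 2 probe sets had r = 0.74 over 12 pools. Of the tissue markers, those of fibroblasts and atrium varied most closely with Cdkn1a (r = 0.59 and 0.53 over 12 pools). The atrial sum was highest at CT42 (12330) and CT38 (11760), but only 5389 at CT22 and 5551 at CT26, where Cdkn1a was high as well. The fibroblast sum was highest at CT26 (20010) and CT42 (17270), where Cdkn1a was high. It was 15250 at CT22 and 16310 at CT38, where Cdkn1a was high too, and 16550 at CT50, where Cdkn1a was low. The r values use the mean log2 level of the markers, which orders the pools differently from the sums. Relative to the mean of the 12 pools, the fibroblast level on that measure was 0.112 at CT38 and -0.101 at CT22. Where Cdkn1a was low, it was -0.049 at CT50 and 0.076 at CT30. With atrial, thymocyte and skeletal muscle markers as covariates the amplitude of Cdkn1a was 0.92 (limma, adjusted p = 0.591). Fibroblast markers were not in that fit, and the part of either tissue in the profile was not tested further.

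The genes most like Cdkn1a were Gucd1 (r = 0.95), Nupr1, a stress-induced nuclear protein (r = 0.87), and Ranbp9, a scaffold protein that binds the GTPase Ran (r = 0.87), each over 12 pools. In the 5 pools where Cdkn1a was highest, Gucd1 measured 613 to 869, against 369 to 488 in the other 7. Nupr1 measured 844 to 1145 in those 5 pools and 556 to 770 in the others, and Ranbp9 420 to 739 and 184 to 320. For all these genes the 5 high pools were the same 5, CT22, CT26, CT38, CT42 and CT62, which follows in part from their selection by correlation.

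**Figure D3:**
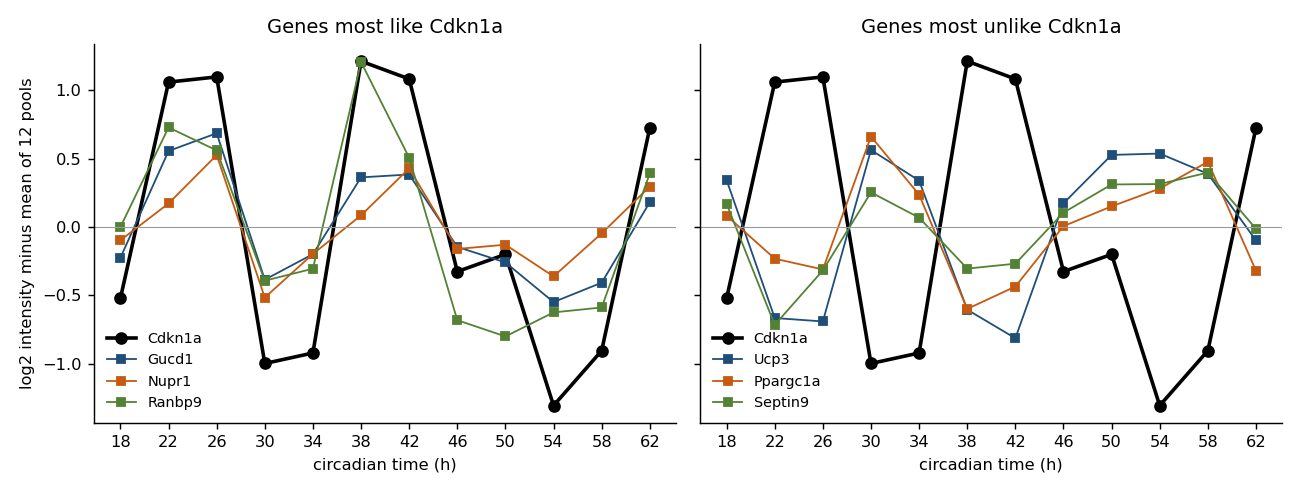
Log2 intensity of Cdkn1a minus its mean over the 12 pools, against circadian time in hours, with the 3 genes of highest correlation (left) and the 3 of lowest correlation (right). Gucd1, Nupr1 and Ranbp9 peak in the same 5 pools as Cdkn1a, and Ucp3, Ppargc1a and Septin9 are lowest in those pools.

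RefSeq (GRCm38.p6) has promoter entries for 2 Cdkn1a transcription starts, and the 250 bases upstream of each are shown because Cdkn1a was the most variable inhibitor and the starts carry different motifs. The array does not tell transcripts of these starts apart. In the distal window, chr17:29090729-29090978 on the plus strand, capitals mark matches to the p53 half-site, at 42 to 51 and 64 to 73 bases before the start. In the proximal window, chr17:29093519-29093768 on the plus strand, capitals mark the GC box GGGCGG, at 41 to 46 and 99 to 104 bases before the start.
Cdkn1a distal: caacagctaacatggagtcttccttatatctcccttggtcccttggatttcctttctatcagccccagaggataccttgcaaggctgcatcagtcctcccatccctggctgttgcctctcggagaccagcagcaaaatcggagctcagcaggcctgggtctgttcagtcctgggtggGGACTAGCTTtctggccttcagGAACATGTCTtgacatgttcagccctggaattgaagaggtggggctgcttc
Cdkn1a proximal: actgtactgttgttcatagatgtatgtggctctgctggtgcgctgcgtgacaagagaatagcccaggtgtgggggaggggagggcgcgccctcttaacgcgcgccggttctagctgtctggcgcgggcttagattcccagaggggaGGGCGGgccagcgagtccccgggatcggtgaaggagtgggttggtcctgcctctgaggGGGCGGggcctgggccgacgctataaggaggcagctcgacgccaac

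A p53 half-site occurs in 7.12% and a GC box in 32.7% of the 32817 upstream windows of the same length in the RefSeq table, counting either strand. Promoter entries were matched for 3 of the 7 genes, Cdkn1a, Cdkn1b and Ccnd3, with 5 windows in total. The clock E-box CACGTG, present in 6.02% of all windows, and the D-box TTATGTAA, present in 0.817%, were in none of the 5, which says only that these letters are not in these windows. The nuclear receptor half-site AGGTCA, present in 14.0% of windows, was in 1 of the 2 Ccnd3 windows. The CHR element TTTGAA of cell cycle promoters (16.0% of windows) was in none of the 5. GC boxes were in the Cdkn1b window and in both Ccnd3 windows.

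Cdkn1b, which encodes p27, did not pass for a 24-h rhythm, and its values were lower on the second day in 5 of 6 pairs of pools, a difference that did not pass after adjustment. Its measured probe set had intensities of 142, 195, 106, 131, 83.2 and 141 from CT18 to CT38. From CT42 to CT62 it had 74.2, 58.8, 67.2, 104, 98.8 and 72.8. The days overlapped only through CT34 on the first day (83.2), which lay below CT54 and CT58 on the second. The mean was 133 ± 38 on the first day and 79.4 ± 18.1 on the second (SD, n = 6 pools each). The difference, the second day minus the first, was -0.72 ± 0.24 (log2, SE, limma), with an unadjusted p of 0.0102 and an adjusted p of 0.640. In this comparison 0% of all probe sets passed after adjustment and 7.54% had an unadjusted p below 0.05, against 0 and 1 of the 5 members. Day differences of the other 4 members lay between -0.31 (Cdkn1a) and 0.10 (Ccnd1), with unadjusted p of 0.456 to 0.846. The 24-h amplitude of Cdkn1b was 0.02 ± 0.22 and the adjusted p 0.999. The other Cdkn1b probe set was at or below the floor in all 12 pools, with values of -84.7 to 2.14, and gives no check of the day difference. On untransformed intensities it had r = 0.35 with the measured probe set over 12 pools. All that is said of Cdkn1b levels therefore rests on 1 probe set. Markers of red blood cells and adipocytes ran against Cdkn1b over the pools (r = -0.62 and -0.46), and thymocyte markers with it (r = 0.36). The red blood cell sum ran from 7054 (CT22) to 9898 (CT38) on the first day and from 7187 (CT54) to 12320 (CT46) on the second. With atrial, thymocyte and skeletal muscle markers as covariates the day difference of Cdkn1b was -0.725 (limma, adjusted p = 0.614). Markers of red blood cells and adipocytes were not in that fit, and their part in the day difference was not tested.

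Klk1b22, a kallikrein gene (r = 0.81), Asnsd1 (0.81) and Rsrc2 (0.80) were the genes most like Cdkn1b over 12 pools. Their intensities were low, with 13.4 to 79.4 for Klk1b22, 36.1 to 94.2 for Asnsd1 and 29.9 to 88.8 for Rsrc2.

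Ccnd3, the D cyclin that developing lymphocytes rely on, varied widely between pools. Its intensity was 141 at CT18, 51.1 at CT22, 81.4 at CT26, 262 at CT30, 117 at CT34 and 184 at CT38. On the second day it was 6.11 at CT42, 172 at CT46, 73.9 at CT50, 325 at CT54, 158 at CT58 and 199 at CT62. The highest pools of each day were those at circadian time 6 (294 ± 44.0, SD, n = 2), and both pools at CT2 were low (77.6 ± 5.35). At CT18 the pools differed most, 141 against a value below the floor. The fitted curve peaked at CT8.9 ± 1.5 h with an amplitude of 0.76 ± 0.30 (log2, SE), and the adjusted p was 0.563 (limma). Of the probe sets tested, 3.21% had a larger SD than Ccnd3.

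The Ccnd3 profile ran alongside markers of thymocytes, immature T cells of the thymus, which lies near the aortic arch. Of 11 thymocyte markers 9 were on the array, 7 passed the filter and none was at the floor in every pool. Their summed intensity was lowest at CT42 (236) and highest at CT54 (4467), the same pools in which Ccnd3 was lowest (6.11) and highest (325). Over the 12 pools the mean log2 level of the markers correlated with Ccnd3 at r = 0.76. Among the 7 single markers, r ranged from -0.05 for Cd4 and 0.04 for Ptcra to 0.78 for Dntt, the terminal transferase of lymphocyte development, and 0.78 for Cd8b1, a CD8 chain. Rag1, the recombinase gene, ran from 19.7 to 1460 (r = 0.75). The median over the 7 markers was 0.71, against -0.03 over the other probe sets tested. Other pools departed from this order. CT18 and CT38 had marker sums of 3596 and 4222 with Ccnd3 at 141 and 184, below CT30 (2959 and 262). CT22 had a sum of 1891 with Ccnd3 at 51.1, below CT26 (422 and 81.4), CT34 (1180 and 117) and CT50 (1226 and 73.9). With the 3 sets of tissue markers as covariates the 24-h amplitude of Ccnd3 was 0.62 (limma, adjusted p = 0.591). Without the 3 pools richest in skeletal muscle markers (CT34, CT18 and CT58) it was 1.27 (limma, adjusted p = 0.491), in a fit that lacks both pools of circadian time 10. The part of thymus in the Ccnd3 values was not tested further.

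**Figure D4:**
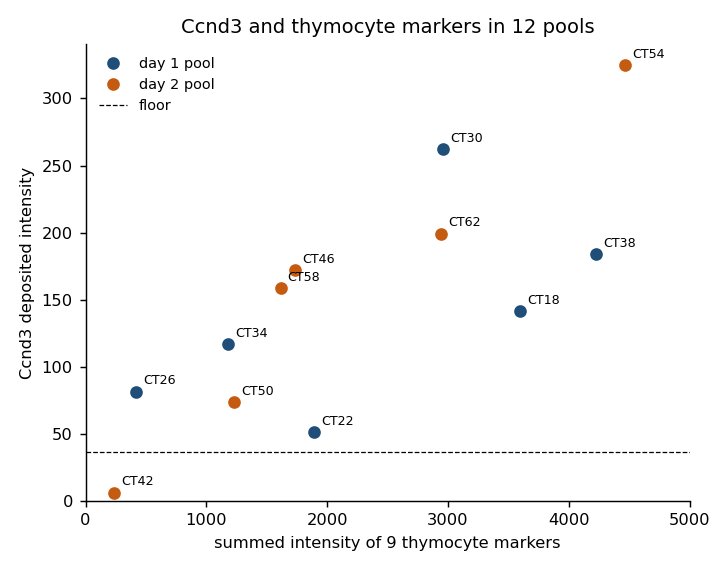
Deposited intensity of Ccnd3 against the summed intensity of the 9 thymocyte markers on the array, 1 point per pool labelled by circadian time. CT42 is lowest on both axes (6.11 and 236) and CT54 highest (325 and 4467), while CT18 and CT38 have high marker sums with middling Ccnd3 and CT22 (1891) has Ccnd3 at 51.1.

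The replication clamp Pcna, the T cell surface gene Thy1 and Mki67, named here after their values were seen, also varied with Ccnd3 (r = 0.80, 0.81 and 0.71). Top2a was looked up with them and had no probe set among those tested. By the same rule as for the other members, the genes most like Ccnd3 were Cxxc5, a zinc finger protein, Pigs, a subunit of the enzyme that attaches lipid anchors to proteins, and Fam13b (r = 0.82 each).

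Ccnd1, the D cyclin that responds to growth factors in most cells, was the steadiest of the measured members by its brighter probe set. The brighter probe set had intensities of 251, 182, 160, 194, 160 and 179 from CT18 to CT38 and 218, 211, 222, 176, 181 and 188 from CT42 to CT62. The highest pool was 1.57-fold above the lowest, and 79.2% of the probe sets tested had a larger SD over the pools. The fitted 24-h curve peaked at CT19.8 ± 2.2 h with an amplitude of 0.16 ± 0.09 (log2, SE), and the adjusted p was 0.710 (limma). Without the 3 pools richest in skeletal muscle markers the amplitude was 0.0855. The 2 CT18 arrays, which gave 252 and 251, were the highest of the 13. The genes most like Ccnd1 were Ibtk, which encodes a kinase inhibitor (r = 0.87), Scd2, a stearoyl-CoA desaturase (r = 0.82), and Ap2b1, a clathrin adaptor subunit (r = 0.81). The other Ccnd1 probe set was at or below the floor in 7 of 12 pools and reached 153 at CT62. Its r with the brighter probe set was -0.09 over 12 pools on untransformed intensities, with the values below the floor included.

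The measured members did not vary as a block. Over the 12 pools the largest correlations between them were negative, -0.59 between Cdkn1a and Ccnd3 and -0.55 between Cdkn1c and Ccnd1. The 3 inhibitors had r between -0.40 (Cdkn1a with Cdkn1c) and 0.14 (Cdkn1a with Cdkn1b), and the 2 D cyclins -0.16. The median 24-h amplitude of the 5 was 0.37, against 0.18 over all probe sets tested, and their fitted peaks were spread from CT8.6 to CT19.8. None of the 5 passed for a rhythm after adjustment, and a fitted amplitude also grows with the scatter of the pools. The peak of Cdkn1b, with an SE of 34.2 h, is not resolved.

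Wee1 and Ccnd2 gave signals too low to measure a change. The Wee1 probe set was at or below the floor in 10 of 12 pools. Its deposited values were 13 at CT18, 32.8 at CT22, -18.1 at CT26, -35.3 at CT30, 46.1 at CT34 and 35.2 at CT38, then 35.1 at CT42, 26.3 at CT46, -21.3 at CT50, 2.01 at CT54, 58.6 at CT58 and 26.5 at CT62. The 2 pools above the floor were both at circadian time 10, CT34 and CT58. The other 10 values were not told apart. The CT18 arrays gave 33.8 and -7.92. The 5th percentile of an array lay between -152 and -69.2, and 21.3% to 24.2% of its intensities were at or below 0, so values of this size lie within the spread of unexpressed probe sets. A fit to untransformed intensities of all probe sets, added after these values were seen, gave Wee1 an amplitude of 27.9 ± 9.26 intensity units (SE), a peak at CT14.7 ± 1.3 h and an adjusted p of 0.551 (limma). In that fit 1 of 10 member probe sets passed, Cdkn1c, against 0.0805% of all, and 2 of 10 had an unadjusted p below 0.05, Cdkn1c and Wee1, against 8.45% of all.

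The single Ccnd2 probe set was at or below the floor in all 12 pools and at or below 0 in 9 of them, with values of -120 to 14.8. No level or change can be given for this D cyclin at the sensitivity of these arrays.

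**Figure D5:**
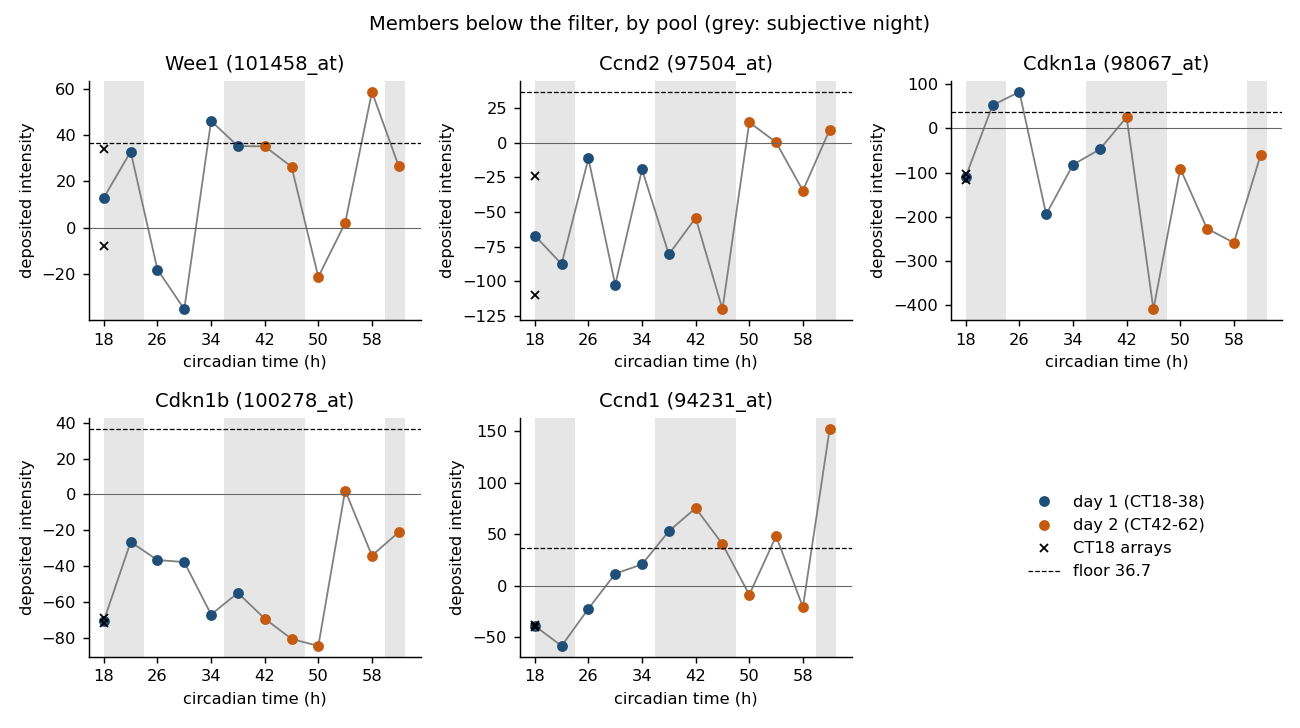
Deposited intensity of the 5 member probe sets below the filter in each of 12 pools against circadian time in hours, with the floor of 36.7 dashed and a solid line at 0. Wee1 exceeds the floor only at CT34 (46.1) and CT58 (58.6), and Ccnd2 stays at or below 14.8.

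Genes that act with these members were examined in 5 lists, of which 66 genes passed the filter. For a 24-h rhythm 0 of the 66 passed after adjustment and 3 had an unadjusted p below 0.05 (limma), Klf6, Akt1 and Birc5, beside 0.349% and 9.96% of all probe sets. Among G1 partners, INK4 inhibitors and Rb-E2F genes (12 measured), the smallest p were those of Ccne1, the cyclin of the step into S phase (amplitude 0.81 ± 0.32, log2, peak CT1.2, adjusted p = 0.553), and Cdkn2d, an inhibitor of CDK4 and CDK6 (0.27 ± 0.11, CT1.9, adjusted p = 0.579). Ccne1 ran from -45.3 to 509, with 1 pool at the floor, and without CT38 its amplitude was 0.324. Among 15 replication genes they were those of Orc6 (0.31 ± 0.12, adjusted p = 0.563) and Cdt1, which loads the replicative helicase (0.21 ± 0.09, adjusted p = 0.598).

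Among 14 genes of G2 and mitosis, Birc5, which encodes survivin, peaked at CT13.1 with an amplitude of 0.58 ± 0.20 (adjusted p = 0.483). It was at the floor in 3 pools, and with the floor at the 30th percentile its amplitude was 0.250. Chek1, a checkpoint kinase upstream of WEE1 and CDC25, had 0.34 ± 0.14 (adjusted p = 0.574), and 0.219 without CT58. Of 15 genes of p53 and other regulators of Cdkn1a, Klf6, a transcription factor that activates Cdkn1a, had 0.26 ± 0.07 and a peak at CT13.7 (adjusted p = 0.293), and Perp, a p53 target of cell junctions, 0.74 ± 0.28 (adjusted p = 0.530), and 0.477 without CT46. In the list on Cdkn1b control and turnover (10 genes), Akt1, a kinase that phosphorylates p27, had 0.32 ± 0.09 and a peak at CT7.5 (adjusted p = 0.329), and Cks1b, a cofactor of p27 degradation, 0.50 ± 0.21 (adjusted p = 0.601). The amplitude of Cks1b was 0.280 with the floor at the 30th percentile and 0.867 without the 3 pools richest in skeletal muscle markers. The latter fit lacks both pools of circadian time 10. Median amplitudes of the lists were 0.16 to 0.23, beside 0.18 over all probe sets. The median r of list genes with the mean log2 level of the thymocyte markers was 0.33 for replication and 0.32 for G2 and mitosis. It ran from 0.05 (regulators of Cdkn1a) to 0.21 (Cdkn1b control) in the other lists. The part of thymus in these values was not tested.

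Between the days 0 of the 66 genes passed after adjustment (limma), and 6 had an unadjusted p below 0.05, all lower on the second day. Of all probe sets 7.54% had such a p in either direction and 4.31% were lower with such a p. These were Pola1, a subunit of DNA polymerase alpha (-0.94 ± 0.19, log2, SE), Gadd45g, a stress sensor (-0.64 ± 0.24), Cenpa, the centromeric histone (-0.46 ± 0.17), the antiproliferative genes Btg1 (-0.38 ± 0.14) and Btg2 (-0.32 ± 0.13), and Cdkn2d (-0.30 ± 0.14). Their adjusted p was 0.416 for Pola1 and 0.640 to 0.661 for the others.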

How the data were processed

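Aortic RNA from 12 time points was measured on 13 one-colour oligonucleotide arrays, and the 2 CT18 arrays were counted as 1 pool. The deposited intensities are linear values, 1 per probe set and array. No source used here gives the software or the scaling. After trimming 2% at each end, the mean was 200.2 on every array. The 66 control probe sets were left out. Gene names came from the platform annotation, and all 7 member symbols matched RefSeq (GRCm38.p6) by gene identifier. Promoter windows carry the RefSeq coordinates, and the probe sets themselves were not placed on the genome.

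Intensities below 36.7 were set to that floor, log2 was taken and the CT18 arrays were averaged. Probe sets with a mean log2 of 5.60 or more were tested. A 24-h curve (cosine and sine terms, 9 residual degrees of freedom) was fitted with limma 3.58.1 under R 4.3.3, with a moderated F test and an intensity trend. The day difference had these terms as covariates (8 degrees of freedom). P-values were adjusted by the Benjamini-Hochberg method over all 7453 probe sets. Pool values and their SD use untransformed intensities.

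The members, lists and tests were chosen with earlier results of these data known. Named were all member probe sets, the 2 list genes with the smallest p where none passed, and for each measured member the 3 genes of highest Pearson r over 12 pools. Day differences were given by value where the unadjusted p was below 0.05. The number of arrays limits the precision.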

Additional observations from a re-analysis of the deposited data

How the results depend on the processing

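Under 26 alternatives, 25 left the count of members with a 24-h rhythm at 0. The exception was the fit to linear intensities without a filter, where the count was 1 (Cdkn1c, adjusted p = 0.0484). That setting and the linear fit to the probe sets kept (adjusted p = 0.0656) were chosen after the values were seen. Over all alternatives the adjusted p of Cdkn1c ran from 0.0484 to 0.507, the highest without the 3 pools richest in skeletal muscle markers (CT34, CT18 and CT58), a fit that lacks both pools of circadian time 10. The count of members that differed between the days was 0 in every alternative, as was that of the cell cycle lists. The number of all probe sets with a rhythm ran from 4 to 40.

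The fitted peak moved by over 6 h for Cdkn1b, whose amplitude was near 0, with amplitudes of 0.232 with tissue markers as covariates, 0.156 without the 3 pools richest in skeletal muscle, and, with single arrays or pools left out, 0.0149 to 0.210, where leaving out CT18 (0.0858), CT22, CT38 (0.0895) or CT50 (0.106) moved the peak that far. It also moved for Ccne1 with tissue markers as covariates (0.588). The cause was not tested. By Spearman correlation 5 of the 15 genes named as most like a member were the same. The Cdkn1b day difference kept its sign throughout, from -0.91 to -0.575 on log2 scales. The floor limits Wee1, Ccnd2 and the dim probe sets of Cdkn1a, Cdkn1b and Ccnd1.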

Other observations

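The genes that ran most against Cdkn1a, looked up after the Cdkn1a values were seen, were Ucp3, a mitochondrial uncoupling protein of muscle and brown fat (r = -0.94 over 12 pools), Ppargc1a, a coactivator of mitochondrial and fuel genes (r = -0.92), and Septin9, a cytoskeletal GTPase (r = -0.85). Ucp3 measured 162 at CT22, 159 at CT26, 169 at CT38, 146 at CT42 and 240 at CT62, the 5 pools in which Cdkn1a was high, and 290 to 380 in the other 7. Ppargc1a measured 41.5 to 53.5 in those 5 pools and 63.1 to 99.5 in the others, close to the floor. Septin9 measured 369 to 600 and 636 to 799. The 5 lowest pools of each of these genes were the 5 highest of Cdkn1a, which the choice by correlation favours. For Cdkn1c the genes of lowest correlation were Papolb (r = -0.90), Gzmb and Rpe (r = -0.84 each).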
